A study of Mus musculus with 12 samples.

Results

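Antisense and bidirectional promoter RNAs are long non-coding transcripts that share their locus with a gene on the opposite DNA strand. They were taken as the rows of the deposited gene table whose biotype was antisense or bidirectional_promoter_lncRNA and whose FPKM (fragments scaled to gene length and to the number of mapped fragments) was at least 1 in at least 6 of 12 libraries, with Gas5, Zfas1 and names starting Snhg left out, a condition that removed 0 rows. The choice gave 164 RNAs of 54532 rows: 144 antisense RNAs of 2826 antisense rows, and 20 bidirectional promoter RNAs of 165 such rows. The rule used the level of each RNA and no difference between groups. The 12 libraries came from mouse embryonic fibroblasts (MEF, connective tissue cells cultured from embryos), with 3 libraries in each of 4 groups. These were CHIP-KO cells held for 1 hour at 43 °C, CHIP-KO cells without heat, wild-type (WT) cells held for 1 hour at 43 °C, and WT cells without heat; CHIP is a chaperone-associated ubiquitin ligase encoded by Stub1. The labels name no other allele or agent, say neither how the KO was made nor whether its cells are a clone, and leave unsaid whether replicates are independent cultures. The tests therefore measure the spread between these libraries, which may be technical.

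An antisense RNA is read from the strand opposite to another gene, often from within it, whereas a bidirectional promoter RNA starts beside the start of a protein-coding gene and runs away from it, so that a single promoter region is read in both directions. Many such transcripts are short-lived in mammalian cells: early cleavage and polyadenylation ends them, and the nuclear exosome, a ring of RNA-degrading subunits, removes them. Some are stable and have known roles, for example Tug1, a nuclear long non-coding RNA with a conserved promoter, and Dnm3os, which in mouse carries a microRNA cluster.

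The printed sequences show the 2 kinds of locus. The first 3 are stretches of the shared promoters of bidirectional RNAs whose levels are described below, read on the strand of the RNA, from RefSeq windows on GRCm38.p6; capitals mark the bases that lie between the start of the partner gene, which runs leftward, and the start of the RNA, which runs rightward. They cover chr11:120348523-120348697 on the plus strand with 135 bases between the starts of Actg1 and 0610009L18Rik, chr12:116405191-116405411 on the minus strand with 191 bases between the starts of Ncapg2 and D430020J02Rik, and chr16:33380708-33380855 on the minus strand with 108 bases between the starts of Zfp148 and 1700007L15Rik.
0610009L18Rik: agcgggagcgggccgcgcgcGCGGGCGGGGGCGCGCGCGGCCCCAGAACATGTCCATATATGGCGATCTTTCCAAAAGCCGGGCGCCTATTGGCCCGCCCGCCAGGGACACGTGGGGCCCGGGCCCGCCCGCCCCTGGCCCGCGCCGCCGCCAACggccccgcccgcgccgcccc
D430020J02Rik: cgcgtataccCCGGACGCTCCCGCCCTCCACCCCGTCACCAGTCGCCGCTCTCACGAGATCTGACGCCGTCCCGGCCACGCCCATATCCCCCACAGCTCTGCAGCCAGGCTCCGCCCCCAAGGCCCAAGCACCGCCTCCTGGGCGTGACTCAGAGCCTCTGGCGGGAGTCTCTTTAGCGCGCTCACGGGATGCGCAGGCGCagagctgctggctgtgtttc
1700007L15Rik: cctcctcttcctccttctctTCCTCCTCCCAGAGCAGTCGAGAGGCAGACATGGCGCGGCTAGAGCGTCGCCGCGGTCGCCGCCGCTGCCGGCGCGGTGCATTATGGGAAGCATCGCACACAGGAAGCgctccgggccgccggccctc

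The next 3 are stretches of spliced transcripts, from GENCODE M21 on GRCm38, of antisense RNAs that were low without heat and higher after it; each has 2 exons, and capitals mark the second. Gm12207 (chromosome 11, 52233724 to 52236619, plus strand) has 494 bases, of which 10 to 209 are shown, Gm45095 (chromosome 7, 35056027 to 35056379, plus strand) has 254, all shown, and Gm30177 (chromosome 13, 36727258 to 36729259, plus strand) has 579, of which 246 to 445 are shown.
Gm12207: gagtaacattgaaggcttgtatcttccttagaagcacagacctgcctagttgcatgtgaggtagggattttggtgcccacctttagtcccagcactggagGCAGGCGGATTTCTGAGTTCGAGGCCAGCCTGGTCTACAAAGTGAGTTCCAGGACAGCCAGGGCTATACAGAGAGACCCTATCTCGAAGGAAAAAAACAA
Gm45095: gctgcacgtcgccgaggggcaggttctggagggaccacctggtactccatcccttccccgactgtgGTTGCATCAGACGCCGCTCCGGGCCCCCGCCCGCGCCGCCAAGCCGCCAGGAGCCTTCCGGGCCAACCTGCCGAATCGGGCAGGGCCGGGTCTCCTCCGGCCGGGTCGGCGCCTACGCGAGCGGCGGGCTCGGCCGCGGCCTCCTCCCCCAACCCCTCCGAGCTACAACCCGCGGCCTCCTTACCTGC
Gm30177: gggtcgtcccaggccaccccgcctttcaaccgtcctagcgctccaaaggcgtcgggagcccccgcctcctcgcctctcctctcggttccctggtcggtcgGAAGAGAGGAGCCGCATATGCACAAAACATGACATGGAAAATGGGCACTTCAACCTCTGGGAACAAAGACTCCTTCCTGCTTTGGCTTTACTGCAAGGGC

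The last is the promoter window of Dnm3os (chr1:162217373-162217672, plus strand, RefSeq on GRCm38.p6), an RNA that lies on the strand opposite to Dnm3 and whose level differed between heated and unheated KO cells; capitals mark the bases from its annotated start on.
Dnm3os: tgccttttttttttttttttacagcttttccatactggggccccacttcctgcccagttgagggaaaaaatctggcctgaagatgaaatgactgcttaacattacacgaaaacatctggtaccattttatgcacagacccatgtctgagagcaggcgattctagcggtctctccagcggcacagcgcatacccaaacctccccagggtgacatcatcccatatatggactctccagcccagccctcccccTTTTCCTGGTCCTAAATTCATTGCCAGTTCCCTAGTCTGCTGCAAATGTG

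Promoter windows of the RNAs, taken from 250 bases before to 50 after a RefSeq start, could be matched for 11 bidirectional and 58 antisense RNAs, with a start within 500 bases of the table's start for 10 and 47. The median GC content was 70.7% in the bidirectional windows and 60.3% in the antisense windows, against 52.7% over all 32817 windows. Unlike the RNAs, the genes of all windows were held to no level of expression, so the sets are not alike. The ratio of observed to expected CpG had medians of 0.988, 0.635 and 0.383 in the same order. The heat shock element was read on both strands as 3 alternating TTC and GAA units with 2 bases between neighbours. It was in 0 of these windows and in 0.603% of all windows, too rare for 10 and 47 windows to differ from the rest. No window was matched for Prss23os, Gm12207, Kdm6bos or Gm14453, described below. The RefSeq start matched for Gm45095 lay 544 bases from the table's start, beyond the limit. The TATA box TATAAA, read on either strand, was in 0 of 10 bidirectional windows, 4 of 47 antisense windows (8.51%) and 13.6% of all windows. The cyclic AMP response element TGACGTCA, which reads the same on both strands, was in 1 bidirectional window, that of B230354K17Rik, and in 1.79% of all. At the other end, the poly(A) signal AATAAA was in the last 40 bases of 16 of 37 annotated transcripts of the bidirectional RNAs (43.2%). It was in 69 of 280 of the antisense RNAs (24.6%), against 39.3% of 58797 protein-coding transcripts of any level. It was absent from that stretch of the 3 antisense transcripts printed above. The libraries were made by poly(A) capture, so an RNA without a poly(A) tail could be under-represented.

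The RNAs were mostly weakly expressed. Antisense RNAs had a median length of 843.5 bases, a median of mean FPKM of 1.80 and a median of 37.4 fragments per library; bidirectional RNAs had 961.5 bases, 1.95 FPKM and 41.3 fragments. Mean fragments per library were under 20 for 36 of the 164, which limits what could be detected. Of the antisense RNAs 54, and of the bidirectional RNAs 9, reached 1 FPKM in all 12 libraries, while 25 and 1 did so in exactly 6 libraries. Among those just inside the level were Prss23os, Gm12207 and Gm45552, with means over the libraries of 3.37, 3.11 and 2.79 FPKM, and Gm45494, at 1.10 FPKM. Just outside, with exactly 5 libraries at 1 FPKM or over, were 29 antisense rows, the highest being Gm15701, Gm16104 and 1700027A07Rik at 1.52, 1.46 and 1.28 FPKM. Rows at 0 in every library were 963 of the antisense and 19 of the bidirectional rows.

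A partner was set as the protein-coding gene on the opposite strand with the longest overlap (antisense) or the nearest start within 2000 bases (bidirectional). Of the antisense RNAs 127 had one, and 58 lay wholly inside its gene body. Among the 144, 47 shared no exon base with an opposite-strand gene, 63 shared up to 25% and 34 shared more. The 20 bidirectional RNAs started 2 to 1080 bases from the start of their partner, with a median of 190.5. The start lay outside the partner gene for 15 of them and inside it for 5. The sources used here do not say whether strand was used in counting, so reads of an RNA and its partner cannot be told apart by strand. Among antisense rows with 90% to 100% of their exon bases in opposite-strand exons, 28 of 31 with a partner of at least 10 FPKM had 0 fragments, against 7 of 160 of those that shared no exon base. The highest mean among those 31 rows was 0.0425 FPKM. With a partner under 10 FPKM, 73 of 82 rows had 0 fragments at 90% to 100%, against 392 of 798 that shared no exon base. How fragments in shared exons were counted was not tested.

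The libraries held 19953642 to 26954112 fragments in heated KO, 22894580 to 26244726 in unheated KO, 17103444 to 19294361 in heated WT and 15591924 to 20098901 in unheated WT cells, as recovered from the FPKM steps. Stub1 stood at 0.996 to 1.17 FPKM in heated and 0.722 to 1.17 FPKM in unheated KO libraries, against 53.8 to 57.9 FPKM in heated and 57.5 to 64.1 FPKM in unheated WT libraries, as the genotype labels say. Fibroblast markers were present, 8 of 10 at a mean of at least 1 FPKM, with summed levels of 3872 to 4100 in heated KO, 3356 to 3545 in unheated KO, 2591 to 2910 in heated WT and 1617 to 1975 FPKM in unheated WT libraries. Epithelial, endothelial and pluripotent markers had 0 of 4, 0 of 3 and 0 of 2 at that level; mesothelial, neural, and blood and macrophage lists had 1 of 3, 1 of 3 and 1 of 4, with Wt1, Adgre1 and Hbb-bs at 0. The summed mesothelial level was 5.397 to 6.05 FPKM in heated WT libraries and 27.7 to 38.1 FPKM elsewhere. The blood and macrophage level was 8.15 to 10.2 FPKM in heated KO, 3.44 to 3.95 in unheated KO, 12.2 to 15.4 in heated WT and 1.73 to 2.92 in unheated WT libraries; the neural level was 13.4 to 18.5 FPKM in KO and 6.15 to 7.71 FPKM in WT libraries. The part of these cells in the results was not tested. In these bulk libraries, fewer cells of a type and less RNA per cell cannot be told apart. The 2 WT libraries with replicate number 1 stood apart from their group (chi-square per degree of freedom 17.6 to 26.7 in pairs with them, 3.49 and 5.09 in the other WT pairs), and so did heated KO replicate 1 (10.4 and 16.6, against 3.40). The heated WT replicate 1 was the highest of its group for 74 of 144 antisense RNAs and the unheated WT replicate 1 the lowest of its group for 85, so counts for WT are also given without both.

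Heat in WT cells was the comparison with the most calls among antisense RNAs, and nearly all calls were rises. The test was limma on log2(FPKM + 1) over 13023 genes, with calls at an adjusted p (Benjamini-Hochberg) below 0.05, and changes below are on that scale, which understates the change of low genes. Of the 144, 57 rose and 8 fell. Of these calls 20 belonged to 23 RNAs that were under 1 FPKM in every library of either group; since these could enter the list only through the other libraries, their values are a description. Among the other 121, 38 rose (31.4%) and 7 fell (5.79%), where 58.7% of all genes tested were called, 28.1% higher and 30.5% lower. The share of rises was thus near the background and the share of falls below it. Their median change was 0.19, against -0.02 over all genes. Without both WT replicates 1, 42 of the 144 rose and 9 fell. The 8 falls were 4 without unheated WT replicate 2 or heated WT replicate 1 or 2, 5 without unheated WT replicate 3 or with voom, 4 with the WT groups alone and 3 with no filter. When every library was scaled to an equal sum, which moved the median of all genes to -0.21, the median of the 144 was 0.11, against 0.27 as deposited, with 44 higher and 11 lower; quantile normalization gave 43 higher and 19 lower.

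**Figure D1:**
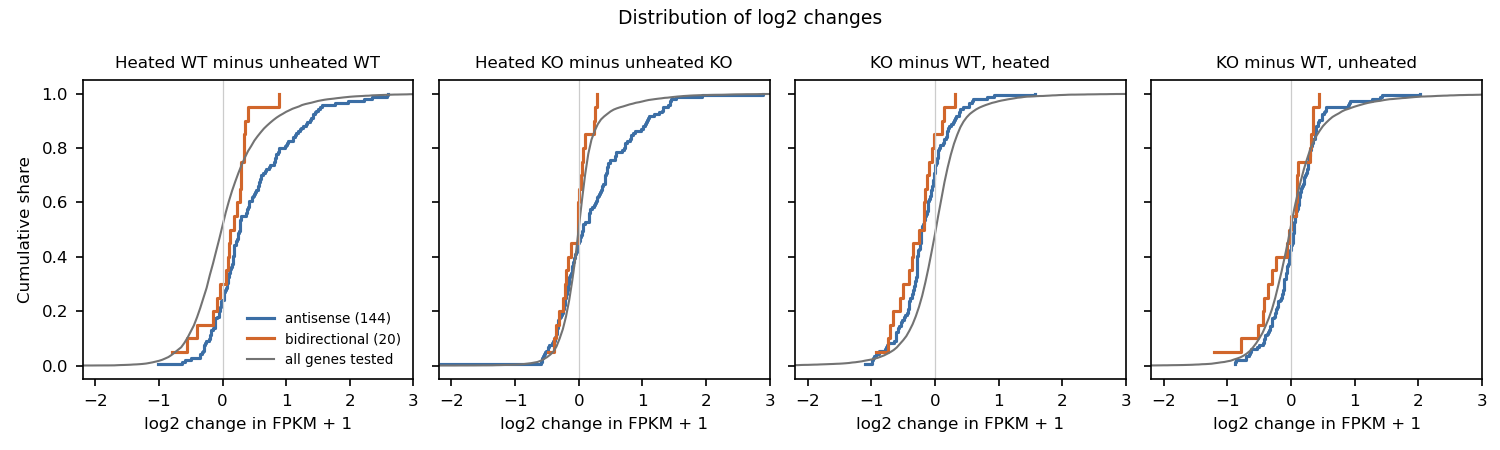
Cumulative share of log2 changes in FPKM + 1 for 144 antisense RNAs, 20 bidirectional promoter RNAs and all genes tested, in 4 comparisons. In heated against unheated WT the antisense curve lies to the right of that of all genes (median 0.27 against -0.02). In KO against WT after heat it lies to the left (median -0.21 against 0.01, or -0.12 without heated WT replicate 1). The curves include RNAs under 1 FPKM in every library of a group compared. Without them the antisense medians were 0.19 (121 RNAs) and -0.19 (134 RNAs).

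Other biotypes held to the same level rule gave the following values for heat in WT, as a description with no test between them, rows under 1 FPKM in a group included. Protein-coding genes (10665) had 27.3% higher and 35.0% lower, with a median of -0.05. Long intergenic RNAs (145) had 36.6% higher and 12.4% lower, with a median of 0.21. Sense intronic rows (17) and rows of the TEC class (72, loci of that name in the annotation that await experimental work) had medians of 0.24 and 0.39.

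Prss23os, antisense to the secreted serine protease gene Prss23 (ENSMUSG00000030623, chromosome 7, 89510007 to 89511873, plus strand, inside the body of Prss23), was near 0 without heat in both genotypes. It had 9.62, 8.69 and 8.32 FPKM in heated KO libraries, against 0.377, 0.326 and 0.271 FPKM in unheated KO libraries. In WT it had 4.30, 3.76 and 4.50 FPKM in heated libraries, against 0.0399, 0.128 and 0.148 FPKM in unheated libraries, the last resting on 1, 4 and 5 fragments. The heated and unheated groups did not overlap in either genotype, which the level rule fixed in advance. An RNA under 1 FPKM in every unheated library enters the list only if all 6 heated libraries reach 1 FPKM. The changes of Prss23os were 2.90 ± 0.08 in KO and 2.23 ± 0.08 in WT (SE), as a description. After heat it was higher in KO than in WT by 0.93 ± 0.08 (limma, adjusted p = 4.9e-06), while Prss23 itself stood at 35.0, 25.3 and 26.5 FPKM in heated KO against 13.1, 9.47 and 8.90 FPKM in heated WT libraries, higher by 1.39 ± 0.14 (adjusted p = 1.3e-05). Of the exon bases of Prss23os, 54.3% lie in opposite-strand exons, and whether its fragments are its own was not tested.

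Gm12207, part of which is printed above, has no protein-coding gene on the opposite strand and lies within the span of Skp1a, a ubiquitin ligase subunit read from the same strand. It had 4.44, 4.84 and 5.18 FPKM in heated KO libraries, against 0.809, 0.450 and 0.349 FPKM in unheated KO libraries. In heated WT libraries it had 8.50, 5.30 and 6.64 FPKM, against 0.257, 0.103 and 0.477 FPKM in unheated WT libraries. Heated and unheated groups did not overlap in either genotype. The level rule fixed this in advance, as for Prss23os, since every unheated library was under 1 FPKM. Skp1a changed by -0.04 in heated KO cells (limma, adjusted p = 0.84) and fell by 0.35 in heated WT cells (adjusted p = 0.025). Whether the fragments counted for Gm12207 come from that locus and from that RNA was not tested.

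Gm30177 lies within Nrn1, the gene of the membrane-anchored neurotrophic factor neuritin, and 978 bases beyond Fars2, a mitochondrial aminoacyl-tRNA synthetase; it shares no exon base with an opposite-strand gene. Its level was 7.51, 12.5 and 9.78 FPKM in heated KO libraries, against 2.62, 2.82 and 3.87 FPKM in unheated KO libraries. In WT it was 21.9, 15.5 and 21.2 FPKM in heated libraries, against 1.21, 3.27 and 3.17 FPKM in unheated libraries. The heated groups lay wholly above the unheated groups. It rose by 1.40 ± 0.26 in KO (limma, adjusted p = 0.0036) and by 2.58 ± 0.26 in WT (adjusted p = 9.3e-06), and both calls held under all 23 alternatives. Nrn1 changed by 0.20 ± 0.08 in heated KO cells (adjusted p = 0.12) and rose by 0.76 ± 0.08 in heated WT cells (adjusted p = 1.8e-05). The smaller rise of Gm30177 in KO was called as an interaction of -1.18 ± 0.36 (adjusted p = 0.027), a call that was lost without both WT replicates 1 (-0.78, adjusted p = 0.058), without heated WT replicate 1 or 3 (-1.09 and -1.12), without unheated KO replicate 3 (-1.05) or without heated KO replicate 1 (-1.01), and with no filter (adjusted p = 0.071).

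Gm45095 starts inside Cebpg, the gene of a C/EBP-family transcription factor, 546 bases from its start and on the opposite strand. It had 3.24, 1.23 and 2.52 FPKM in heated KO libraries, against 0.472, 1.17 and 0.170 FPKM in unheated KO libraries. It had 6.32, 3.21 and 4.09 FPKM in heated WT libraries, against 0, 0.201 and 0 FPKM in unheated WT libraries. Its fragments numbered at most 31 in a library. Cebpg changed by 0.19 ± 0.15 in heated WT cells (adjusted p = 0.32), with groups that overlapped. Kdm6bos, antisense to the histone demethylase gene Kdm6b, had 2.98, 2.73 and 2.52 FPKM in heated KO libraries, against 0.476, 0.0441 and 0.410 FPKM in unheated KO libraries. It had 4.32, 1.66 and 3.32 FPKM in heated WT libraries, against 0.378, 0.426 and 0.393 FPKM in unheated WT libraries. Kdm6b rose by 0.94 ± 0.15 in heated WT cells (limma, adjusted p = 0.0003). Gm14453, antisense to the RNA-binding protein gene Rbm38, rose by 1.45 ± 0.25 in heated KO cells (adjusted p = 0.0027), where Rbm38 changed by -0.08 ± 0.13 (adjusted p = 0.71). In heated WT cells Rbm38 fell by 0.69 (adjusted p = 0.001), whereas Gm14453 had 2.998, 1.26 and 1.88 FPKM in heated WT libraries against 0.115, 0.832 and 0.256 FPKM in unheated WT libraries.

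**Figure D2:**
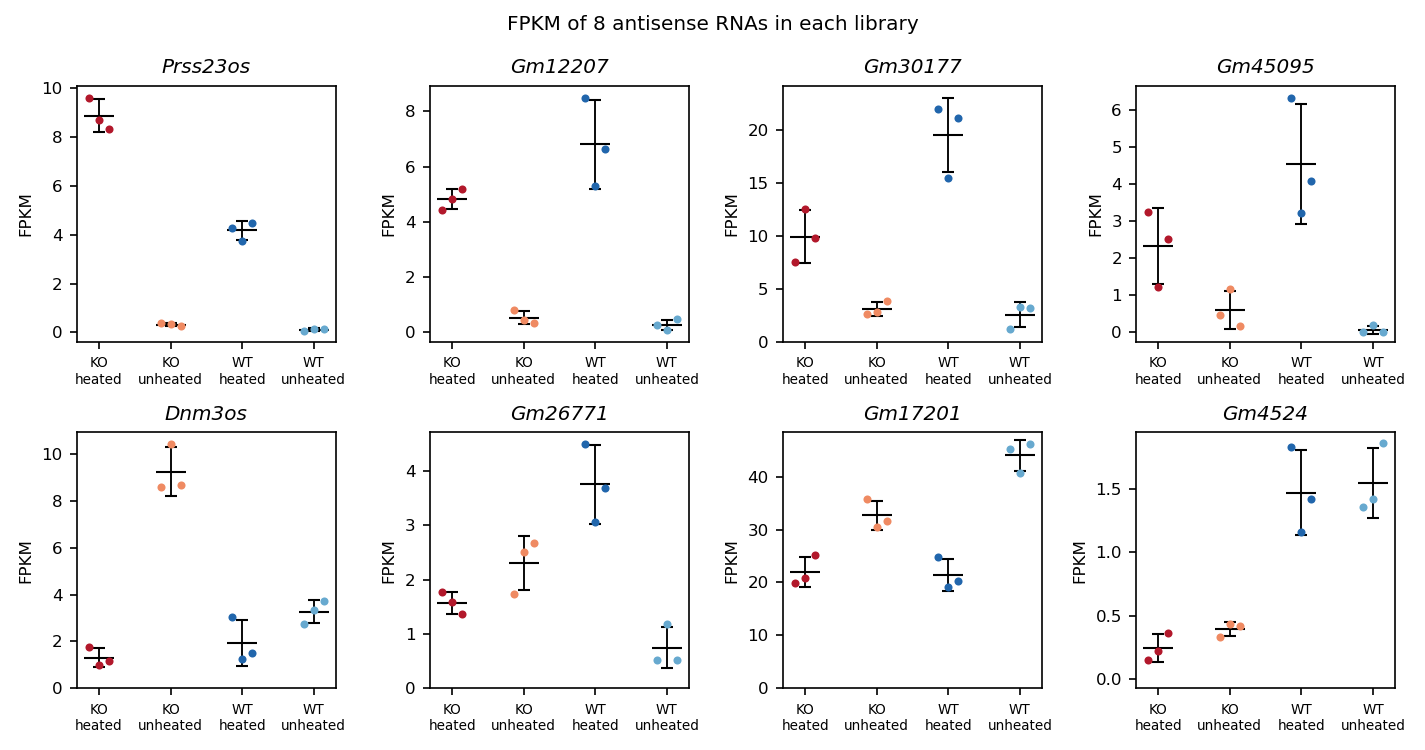
FPKM of 8 antisense RNAs, 1 point per library, with the mean and SD of 3 libraries per group. Prss23os, Gm12207, Gm30177 and Gm45095 are higher in heated libraries of both genotypes, Dnm3os is highest in unheated KO, Gm26771 is highest in heated WT, Gm17201 is lower in heated libraries, and Gm4524 is lower in KO libraries.

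The falls with heat in WT were fewer than the rises. Gm17201 was the most abundant antisense RNA per length and lies within Ankrd52, the gene of a protein phosphatase regulatory subunit. It had 19.9, 20.8 and 25.2 FPKM in heated KO libraries, against 35.8, 30.5 and 31.7 FPKM in unheated KO libraries. Its WT values were 24.8, 19.1 and 20.2 FPKM in heated WT libraries, against 45.2, 40.8 and 46.1 FPKM in unheated WT libraries. It fell by 0.56 ± 0.11 in KO (limma, adjusted p = 0.0056) and by 1.02 ± 0.11 in WT (adjusted p = 1.9e-05), with no overlap. Ankrd52 fell by 0.54 ± 0.09 in KO (adjusted p = 0.0028) and by 1.01 ± 0.09 in WT (adjusted p = 6.2e-06), and 59.5% of the exon bases of Gm17201 lie in opposite-strand exons, so whether its fragments are its own was not tested. Brip1os, named for the DNA helicase gene Brip1 and overlapping the Integrator subunit gene Ints2, rested on 2160 to 5231 fragments and fell by 0.36 ± 0.05 in KO (adjusted p = 0.0013) and 0.33 ± 0.05 in WT (adjusted p = 0.00039). Ints2 changed by -0.03 ± 0.05 in KO (adjusted p = 0.70) and fell by 0.33 ± 0.05 in WT (adjusted p = 0.00027). Zfp335os, which starts 403 bases inside the zinc finger gene Zfp335, had 1.34, 1.05 and 1.85 FPKM in heated WT libraries, against 2.64, 2.81 and 2.74 FPKM in unheated WT libraries. It fell by 0.64 ± 0.15 (adjusted p = 0.0034), while Zfp335 changed by -0.07 ± 0.08 (adjusted p = 0.49). Another of the most abundant, 4930579G18Rik, within the apoptotic chromatin condensation gene Acin1, averaged 7.49 ± 2.42 FPKM in heated KO, 9.48 ± 1.98 FPKM in unheated KO, 9.60 ± 1.06 FPKM in heated WT and 8.48 ± 2.15 FPKM in unheated WT cells (SD, n = 3 each) and was not called in any comparison. Gm14091, antisense to the spindle gene Knstrn, fell by 0.49 ± 0.17 (adjusted p = 0.026), but the call was lost without unheated WT replicate 2 or 3, without heated WT replicate 1 or 2 (changes of -0.45, -0.37, -0.47 and -0.47), with voom and with no filter.

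Heat in KO cells gave fewer calls than heat in WT over all genes and over these RNAs. Of the 144 antisense RNAs 32 rose and 11 fell, and of the 116 that reached 1 FPKM in each group 16 rose (13.8%) and 9 fell (7.76%), against 8.65% higher and 11.4% lower over all genes. The median over the 116 was 0.01. The 11 falls were 5 without unheated KO replicate 2, 6 without unheated KO replicate 1 or heated KO replicate 3, and 7 without heated KO replicate 1 or 2 or with no filter. With an equal sum per library the split of the 144 was 27 higher and 35 lower, where the median of all genes moved to -0.29 and that of the antisense RNAs to -0.13. The WT and KO heat comparisons share no library: 30 antisense RNAs rose in both, 26 rose in WT with no call in KO, 4 fell in both, 4 fell in WT with no call in KO, 2 rose and 6 fell in KO with no call in WT, 1 rose in WT and fell in KO, and 71 were called in neither. Among the 104 that reached 1 FPKM in each of the 4 groups, 12.5% rose in both, 19.2% rose in WT with no call in KO, 3.85% fell in both and 2.88% fell in WT with no call in KO. Over all 13023 genes these shares were 5.97%, 20.5%, 6.73% and 22.9%. A call in 1 genotype alone does not show a difference, which the interaction tests below.

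**Figure D3:**
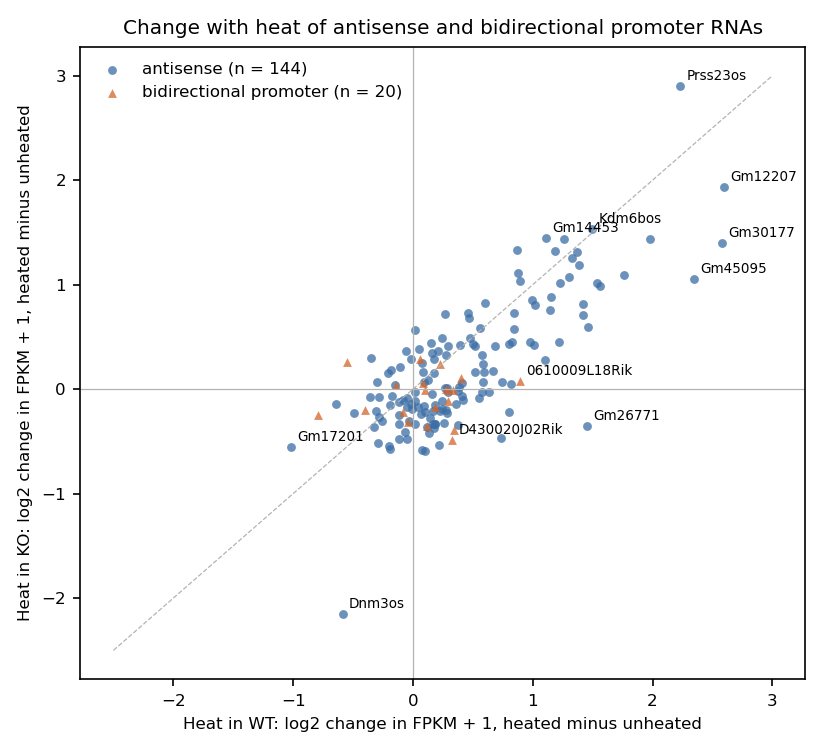
Log2 change in FPKM + 1 with heat in KO (vertical axis) against that in WT (horizontal axis) for 144 antisense and 20 bidirectional promoter RNAs; the dashed line marks equal change. Prss23os, Gm12207 and Gm30177 lie high on both axes, Dnm3os fell more in KO, and Gm26771 and 0610009L18Rik lie right of the line.

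Dnm3os showed the largest fall with heat in KO among the 144 antisense RNAs and was higher in unheated KO than in unheated WT cells. It had 1.78, 1.01 and 1.15 FPKM in heated KO libraries, against 8.61, 10.5 and 8.70 FPKM in unheated KO libraries. In WT it had 3.04, 1.25 and 1.497 FPKM in heated libraries, against 2.75, 3.33 and 3.72 FPKM in unheated libraries. The KO groups did not overlap, while the WT groups did. The fall was 2.16 ± 0.20 in KO (limma, adjusted p = 7.7e-05), on 154 to 2236 fragments per library. In WT it fell by 0.58 ± 0.20 (adjusted p = 0.026), a call lost without unheated WT replicate 2 or 3 (-0.57 and -0.51) or heated WT replicate 2 or 3 (-0.42 and -0.49), with no filter or with these 2 groups alone. Without heat it was higher in KO by 1.27 ± 0.20 (adjusted p = 0.00035), and the interaction was -1.57 ± 0.28 (adjusted p = 0.0015); both held under all 23 alternatives. Dnm3, a dynamin GTPase gene, was at 0.0464 to 0.235 FPKM in the 12 libraries and was not tested.

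Tug1, which starts 179 bases inside the chromatin ATPase gene Morc2a, was the antisense RNA called in opposite directions in the 2 genotypes. It had 17.1, 15.6 and 16.03 FPKM in heated KO libraries, against 18.4, 18.4 and 18.9 FPKM in unheated KO libraries. It had 17.4, 16.9 and 15.96 FPKM in heated WT libraries, against 14.1, 13.8 and 14.1 FPKM in unheated WT libraries. The changes were small: it fell by 0.19 ± 0.05 in KO (limma, adjusted p = 0.020) and rose by 0.24 ± 0.05 in WT (adjusted p = 0.0013). The fall in KO was lost without any 1 of the unheated KO libraries or of heated KO replicates 2 and 3 (-0.16 to -0.19), and the rise in WT was 0.02 (adjusted p = 0.81) with an equal sum per library. The difference between them, an interaction of -0.43 ± 0.07 (adjusted p = 0.00065), held under all 23 alternatives. Gm47950, antisense to the transcription factor gene Ubp1, fell by 0.58 ± 0.18 in heated KO cells (adjusted p = 0.042), a call lost under 12 of the 23 alternatives, among them leaving out any 1 of the heated KO libraries (-0.54 to -0.61) or unheated KO replicate 1 or 2 (-0.44 and -0.47).

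KO cells without heat differed from WT cells at few of these RNAs. Of the 144 antisense RNAs 15 were higher and 15 lower, and of the 111 that reached 1 FPKM in each group 9 were higher (8.11%) and 10 lower (9.01%), against 23.9% and 24.5% over all genes; both shares were below the background. The 15 lower were 9 without unheated KO replicate 3, and 8 with no filter. Some of the widest gaps belonged to RNAs under 1 FPKM in every library of either genotype, given here as a description. Hoxb5os, within the homeobox gene Hoxb6, had 3.68, 2.93 and 1.86 FPKM in unheated KO libraries, against 0.365, 0.514 and 0.406 FPKM in unheated WT libraries. Hoxb6 had 6.88, 6.74 and 6.65 FPKM in the same KO libraries, against 0.808, 0.989 and 0.887 FPKM in the WT libraries. Gm45564 had 3.47, 4.89 and 5.37 FPKM in unheated KO libraries, against 0.479, 0.0964 and 0.533 FPKM in unheated WT libraries. Its partner Plekha4, which encodes a pleckstrin homology domain protein, had 9.52, 9.13 and 9.01 FPKM in these KO libraries, against 0.189, 0.433 and 0.333 FPKM in the WT libraries. In the other direction, Gm4524 had 0.335, 0.430 and 0.421 FPKM in unheated KO libraries, against 1.36, 1.42 and 1.86 FPKM in unheated WT libraries. P3h2, a collagen prolyl 3-hydroxylase gene that it overlaps, had 1.58, 1.57 and 1.77 FPKM in these KO libraries, against 10.1, 9.38 and 9.92 FPKM in the WT libraries. 3110045C21Rik, which overlaps the collagen receptor gene Ddr2 by 90 bases, had 0.846, 0.881 and 0.835 FPKM in unheated KO libraries, against 2.29, 2.79 and 2.24 FPKM in unheated WT libraries. Gm49490, at the start of the secreted protein gene C1qtnf6, had 0.758, 0.468 and 0.544 FPKM in unheated KO libraries, against 1.87, 1.72 and 2.18 FPKM in unheated WT libraries. The unheated KO and WT libraries did not overlap for any of these RNAs. For an RNA under 1 FPKM in all 6 libraries of a genotype, the level rule fixes this in advance. Of all genes tested, 30.1% did not overlap on the higher side and 31.1% on the lower side.

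Among RNAs measured in both genotypes, Gm15347, antisense to the phospholipid flippase gene Atp11a, had 3.84, 5.87 and 4.48 FPKM in unheated KO libraries, against 0.330, 1.86 and 1.47 FPKM in unheated WT libraries, higher by 1.43 ± 0.33 (limma, adjusted p = 0.0039). Atp11a was higher by 0.70 ± 0.10 (adjusted p = 0.00014). Tug1 was higher by 0.38 ± 0.05 (adjusted p = 6.3e-05) and Brip1os by 0.34 ± 0.05 (adjusted p = 0.00043), where Ints2 was lower, with a change of -0.23 ± 0.05 (adjusted p = 0.0036). Zfp335os was lower, with 0.974, 1.40 and 1.52 FPKM in unheated KO libraries against 2.64, 2.81 and 2.74 FPKM in unheated WT libraries and a change of -0.71 ± 0.15 (adjusted p = 0.0025); its partner changed by 0.01 ± 0.08 (adjusted p = 0.94). The calls in these 4 RNAs held under all 23 alternatives. After heat Gm49490 had 0.989, 1.10 and 1.14 FPKM in KO libraries against 2.29, 1.71 and 2.07 FPKM in WT libraries, a change of -0.54 ± 0.10 (adjusted p = 0.0015), beside -1.26 ± 0.11 for C1qtnf6 (adjusted p = 3.2e-06).

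After heat, KO cells had lower levels than WT cells in most of the antisense RNAs called. Of the 144, 28 were lower and 8 higher, and of the 134 that reached 1 FPKM in each group 24 were lower (17.9%) and 6 higher (4.48%), against 19.1% lower and 23.3% higher over all genes; the share of lower calls was near the background and that of higher calls below it. The median of the 134 was -0.19; that of the 144 was -0.21, or -0.12 without heated WT replicate 1. The 8 higher were 4 without heated KO replicate 2 or with voom, and 5 without heated KO replicate 3 or with no filter. Without both WT replicates 1, 23 of the 144 were lower and 12 higher, and with limma's library weights 48 were lower and 21 higher. Gm15445, which lies within the span of the small GTPase gene Arl8a on the same strand, had 1.62, 1.98 and 2.20 FPKM in heated KO libraries, against 4.90, 5.402 and 5.62 FPKM in heated WT libraries. It was lower by a change of -1.11 ± 0.21 (limma, adjusted p = 0.0016), and Arl8a by -0.34 (adjusted p = 0.00098). Med9os, named for the Mediator subunit gene Med9, had 1.11, 0.691 and 1.31 FPKM in heated KO libraries, against 1.97, 4.30 and 3.01 FPKM in heated WT libraries, a change of -0.98 ± 0.24 (adjusted p = 0.0067). Gm15410 had 0.360, 0.478 and 0.814 FPKM in heated KO libraries, against 1.62, 2.03 and 2.61 FPKM in heated WT libraries. Brip1os was higher by 0.30 ± 0.05 (adjusted p = 0.0011), and the calls for Gm15445, Med9os and Brip1os held under all 23 alternatives. Gm15050, antisense to the homeobox gene Hoxa3, was higher by 0.58 ± 0.20 (adjusted p = 0.036), a call lost under 10 of the 23 alternatives, among them leaving out heated WT replicate 1 or 3 (0.50 and 0.48), any 1 of the heated KO libraries (0.56 to 0.60) and the replicate block (adjusted p = 0.061).

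The heat response itself differed between genotypes for 19 of the 144 antisense RNAs, 17 with an interaction below 0 and 2 above it; of the 104 that reached 1 FPKM in all 4 groups, 12 were below (11.5%) and 1 above (0.962%), against 17.3% and 17.9% over all genes. Without both WT replicates 1 the 144 gave 8 below and 6 above, and voom gave 16 below and 0 above, where limma at an unadjusted p under 0.05 had 31 below and 6 above. The count of 19 was 8 without unheated KO replicate 2 and 12 without heated KO replicate 3. The 17 below 0 were 11 without heated KO replicate 2 or 3 or unheated WT replicate 2. Gm26771, which overlaps the end of the Wnt modulator gene Sfrp2, had 1.77, 1.59 and 1.36 FPKM in heated KO libraries, against 1.74, 2.50 and 2.67 FPKM in unheated KO libraries. In WT it had 4.50, 3.06 and 3.69 FPKM in heated libraries, against 0.528, 1.18 and 0.522 FPKM in unheated libraries. The KO groups overlapped and the WT groups did not. It changed by -0.35 ± 0.17 in KO (limma, adjusted p = 0.17) and rose by 1.46 ± 0.17 in WT (adjusted p = 2.6e-05), with an interaction of -1.81 ± 0.24 (adjusted p = 0.00018) that held under all 23 alternatives. Sfrp2 had 6.31, 5.58 and 4.46 FPKM in heated KO, 6.07, 7.06 and 7.59 FPKM in unheated KO, 64.4, 80.8 and 75.3 FPKM in heated WT and 24.7, 20.9 and 23.5 FPKM in unheated WT libraries, with an interaction of -1.93 ± 0.17 (adjusted p = 1.3e-05). Without heat Gm26771 was higher in KO by 0.93 ± 0.17 (adjusted p = 0.00081) and Sfrp2 lower, with a change of -1.61 ± 0.12 (adjusted p = 1e-06).

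The calls of antisense RNAs and their partners are given as counts, a description that holds no test and has no background to read it against. For heat in WT, 36 of 120 pairs with a tested partner had both called, 26 in the same and 10 in opposite directions; for heat in KO there were 10, 9 the same and 1 opposite; for KO against WT without heat 17, 13 and 4; after heat 17, 14 and 3. Of the 51 antisense RNAs with a tested partner that rose in heated WT cells, the partner rose in 22, fell in 10 and was not called in 19. Spearman's correlation of the changes across 120 pairs, whose points share the libraries, was 0.35 for heat in WT and 0.47 for KO against WT after heat. The 47 antisense RNAs with no exon base in common with an opposite-strand gene had 20 rises and 1 fall with heat in WT, the 63 with up to 25% in common had 23 and 6, and the 34 with more had 14 and 1. Their medians were 0.37, 0.16 and 0.41. The 25 that started within 2000 bases of the start of their partner had 7 rises and 3 falls, and the 102 that started farther away 44 and 5. These class counts include RNAs under 1 FPKM in every library of a WT group, so they are a description. Over all genes tested, 28.1% rose and 30.5% fell with heat in WT.

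**Figure D4:**
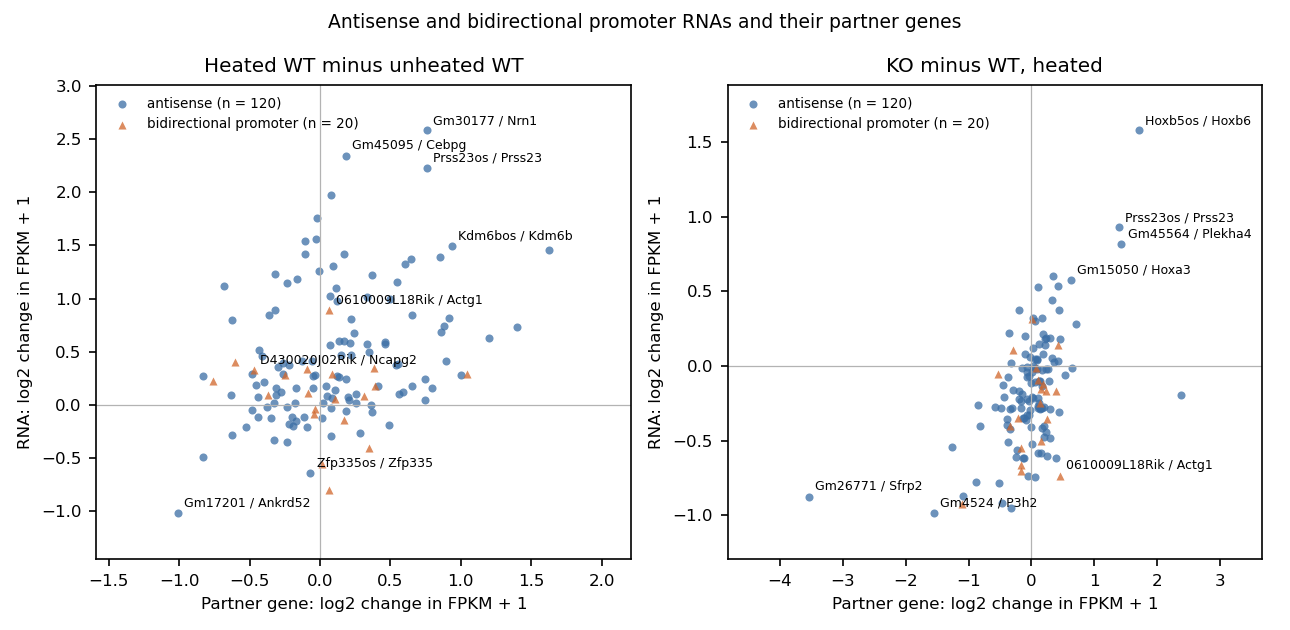
Log2 change in FPKM + 1 of each antisense (n = 120) or bidirectional promoter RNA (n = 20) against that of its partner gene, for heated against unheated WT and for KO against WT after heat. Gm17201 and Ankrd52 changed nearly equally (-1.02 and -1.01), whereas in heated WT 0610009L18Rik rose by 0.89 beside 0.07 for Actg1, and D430020J02Rik rose by 0.33 where Ncapg2 fell by 0.47.

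Among the 20 bidirectional promoter RNAs, 3 rose and 1 fell with heat in WT (3 fell without heated WT replicate 2); of the 19 that reached 1 FPKM in each group 3 rose (15.8%) and 0 fell by limma (voom called 1 of the 20 lower, and 2 of the 20 were lower at an unadjusted p under 0.05). For heat in KO, 0 rose and 3 fell; 0 were higher by voom or at an unadjusted p under 0.05. For KO against WT without heat 3 were higher and 4 lower, and after heat 0 higher and 5 lower, with 0 higher by voom or at an unadjusted p under 0.05. The interaction was below 0 for 3 and above 0 for 0 (0 above by voom, 1 above at an unadjusted p under 0.05). The medians were 0.15, -0.01, -0.02, -0.21 and -0.27 in that order. The median for heat in KO was -0.07 to -0.10 without any 1 of the KO libraries. The median after heat was -0.33 without heated WT replicate 1, that of the interaction -0.18 without heated KO replicate 1, and that of heat in WT 0.26 without both WT replicates 1. The median for KO against WT without heat was -0.10 without unheated KO replicate 3. The 5 calls after heat were 3 without heated WT replicate 3 and 8 without heated KO replicate 3, and the 3 interaction calls were 6 without heated WT replicate 1 and 5 without heated KO replicate 2 or without both WT replicates 1. Each share lies below that of all genes in the same direction, except for the falls in heated KO cells, 15% of 20 against 11.4%, and the lower levels in KO after heat, 26.3% of 19 against 19.1%.

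0610009L18Rik, which shares its promoter with the cytoplasmic actin gene Actg1 (sequence above), had 1.64, 1.18 and 1.43 FPKM in heated KO libraries, against 1.10, 1.20 and 1.60 FPKM in unheated KO libraries. In WT it had 2.76, 3.10 and 3.18 FPKM in heated libraries, against 0.718, 1.32 and 1.52 FPKM in unheated libraries. The KO groups overlapped and the WT groups did not, on 7 to 36 fragments per library. It changed by 0.07 ± 0.14 in KO (limma, adjusted p = 0.76) and rose by 0.89 ± 0.14 in WT (adjusted p = 0.00028). The interaction was -0.82 ± 0.20 (adjusted p = 0.0089). Actg1, at 541 to 615 FPKM in heated WT and 479 to 601 FPKM in unheated WT libraries, changed by 0.07 ± 0.09 (adjusted p = 0.55). After heat the RNA was lower in KO, by a change of -0.73 ± 0.14 (adjusted p = 0.0017), where Actg1 was higher by 0.45 ± 0.09 (adjusted p = 0.0019).

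D430020J02Rik, which shares its promoter with the condensin subunit gene Ncapg2, had 6.74, 7.61 and 7.61 FPKM in heated KO libraries, against 10.1, 12.1 and 9.92 FPKM in unheated KO libraries. In WT it had 9.11, 12.1 and 11.3 FPKM in heated libraries, against 8.18, 7.78 and 9.21 FPKM in unheated libraries. The KO groups did not overlap; the WT groups overlapped in 1 library of each. The fall in KO was 0.49 ± 0.11 (limma, adjusted p = 0.0083), and the interaction of -0.82 ± 0.15 (adjusted p = 0.0015) held under all 23 alternatives. The rise in WT of 0.33 ± 0.11 (adjusted p = 0.019) was 0.11 (adjusted p = 0.31) with an equal sum per library and lost its call without unheated WT replicate 1 or 2 (0.31 and 0.28) or heated WT replicate 2 or 3 (0.25 and 0.30), and with the 2 groups alone. Ncapg2 changed by -0.18 ± 0.10 in heated KO cells (adjusted p = 0.26) and fell by 0.47 ± 0.10 in heated WT cells (adjusted p = 0.0023).

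B230354K17Rik, beside the spliceosome gene Cdc5l, had 5.03, 4.31 and 3.78 FPKM in heated KO libraries, against 5.45, 5.81 and 6.28 FPKM in unheated KO libraries. Its WT values were 5.68, 4.36 and 4.52 FPKM in heated WT libraries, against 4.30, 4.37 and 4.47 FPKM in unheated WT libraries. It fell by 0.35 ± 0.10 in KO (limma, adjusted p = 0.028), a call lost without unheated KO replicate 2 or 3 or heated KO replicate 2 or 3 (-0.36, -0.31, -0.35 and -0.27) and with no filter. Its interaction of -0.47 ± 0.14 (adjusted p = 0.024) was lost without both WT replicates 1 (-0.36), unheated KO replicate 3 (-0.42) or heated KO replicate 3 (-0.39), and with no filter. E130317F20Rik, beside the splicing repressor gene Ptbp1, fell by 0.31 ± 0.08 in heated KO cells (adjusted p = 0.016), a call lost without replicate 1 of unheated KO (-0.27) or of heated KO (-0.24). Ptbp1 changed by 0.13 ± 0.14 (adjusted p = 0.56). 4933412E12Rik, beside the Rab exchange factor gene Rab3ip, had 9.90, 12.8 and 11.8 FPKM in heated WT libraries, against 9.07, 7.81 and 8.38 FPKM in unheated WT libraries. It rose by 0.40 ± 0.09 (adjusted p = 0.0025), or by 0.19 (adjusted p = 0.059) with an equal sum per library, where Rab3ip fell by 0.61 ± 0.07 (adjusted p = 2.4e-05). 2810013P06Rik, beside the ankyrin repeat gene Ankrd11, averaged 3.88 ± 0.74 FPKM in heated KO, 3.89 ± 0.50 FPKM in unheated KO, 3.91 ± 0.67 FPKM in heated WT and 2.99 ± 0.27 FPKM in unheated WT cells (SD, n = 3 each) and was not called in any comparison. F730043M19Rik, beside the ataxin family gene Atxn7l1, had 0.978, 0.555 and 0.569 FPKM in heated WT libraries, against 1.75, 2.37 and 1.72 FPKM in unheated WT libraries.

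**Figure D5:**
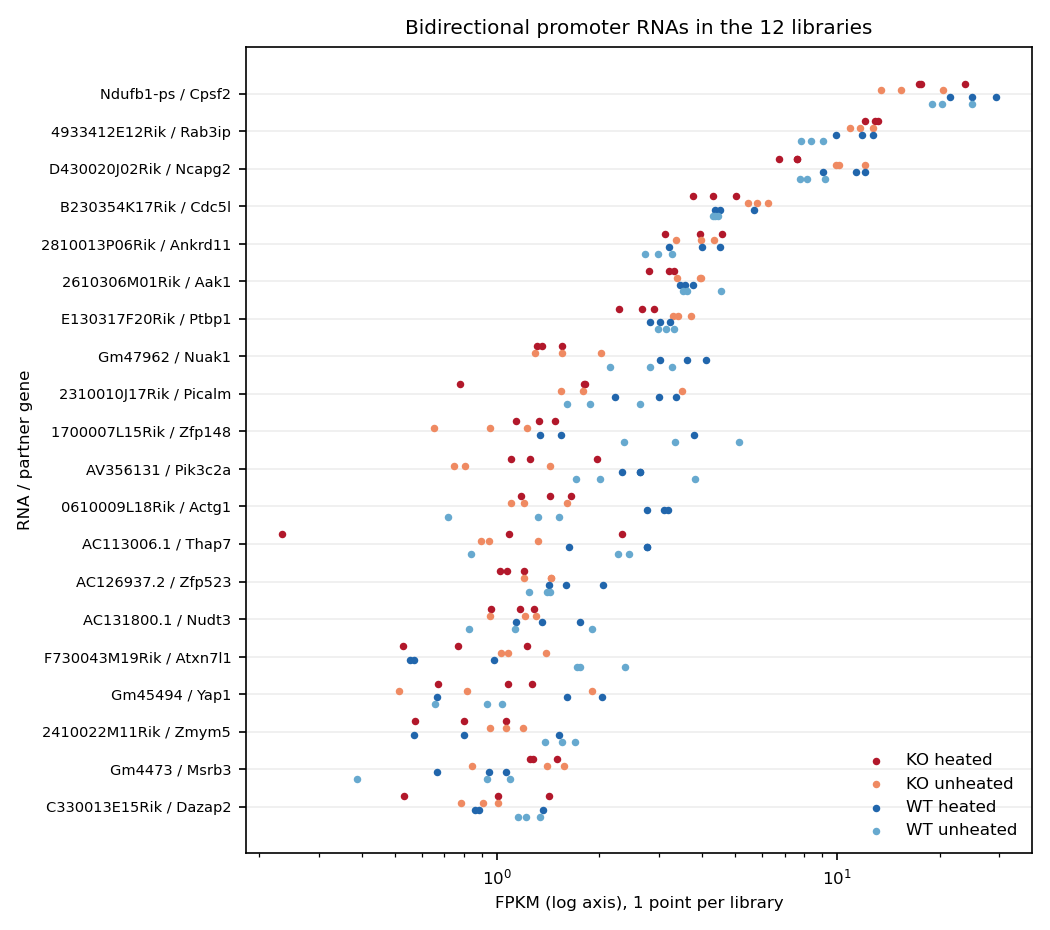
FPKM (log axis) of the 20 bidirectional promoter RNAs, each row an RNA with its partner gene and 1 point per library, coloured by group. Ndufb1-ps, beside Cpsf2, is the highest at 13.5 to 29.4 FPKM, and 1700007L15Rik and Gm47962 lie lower in unheated KO than in unheated WT libraries.

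Between genotypes, 1700007L15Rik, which shares the promoter of the zinc finger gene Zfp148 (sequence above), had 0.650, 0.954 and 1.23 FPKM in unheated KO libraries, against 5.16, 3.32 and 2.36 FPKM in unheated WT libraries. It was lower by a change of -1.21 ± 0.27 (limma, adjusted p = 0.0033), while Zfp148 changed by -0.12 ± 0.09 (adjusted p = 0.30). AV356131, beside the lipid kinase gene Pik3c2a, had 0.747, 1.43 and 0.804 FPKM in unheated KO libraries, against 3.81, 1.70 and 2.01 FPKM in unheated WT libraries, a change of -0.78 ± 0.21 (adjusted p = 0.010), while Pik3c2a changed by -0.18 ± 0.13 (adjusted p = 0.29). Gm47962, beside the kinase gene Nuak1, was lower in KO both without heat (-0.51 ± 0.13, adjusted p = 0.0086) and after heat (-0.92 ± 0.13, adjusted p = 0.00023). Its values after heat were 1.55, 1.31 and 1.36 FPKM in KO libraries, against 4.10, 3.63 and 3.02 FPKM in WT libraries, and Nuak1 moved the same way, with changes of -0.53 ± 0.14 and -1.11 ± 0.14. 4933412E12Rik was higher in unheated KO by 0.44 ± 0.09 (adjusted p = 0.0019). The calls given for these 4 RNAs held under all 23 alternatives. 2310010J17Rik, beside the clathrin assembly gene Picalm, was lower in KO after heat by a change of -0.67 ± 0.24 (adjusted p = 0.045), but the call was lost under 9 of the 23 alternatives, among them leaving out heated WT replicate 1 or 3 (-0.57 and -0.63) or heated KO replicate 2 (-0.45), or unheated WT replicate 2 or 3 or unheated KO replicate 1 with the same change of -0.67.

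Genes of the machinery that ends and removes such RNAs were read from the same fit, from lists chosen from general knowledge. Over all genes tested, 8.65% rose and 11.4% fell with heat in KO, and 28.1% rose and 30.5% fell in WT. In KO against WT 23.9% were higher and 24.5% lower without heat, and 23.3% and 19.1% after heat. The interaction was above 0 for 17.9% and below 0 for 17.3%. Of 12 tested genes of the nuclear exosome core, 0 fell or rose with heat in KO by limma (median -0.03; 1 each at an unadjusted p under 0.05, 1 lower by voom), and 9 fell and 0 rose in WT (median -0.58; 0 rose by voom or at an unadjusted p under 0.05). Exosc9, a ring subunit, averaged 4.58 ± 0.06 FPKM in heated WT and 9.44 ± 2.17 FPKM in unheated WT cells (SD, n = 3 each), a change of -0.89 ± 0.12 (limma, adjusted p = 8.1e-05). Without heat 7 of the 12 were lower in KO and 0 higher (median -0.20; 0 higher by voom or at an unadjusted p under 0.05). After heat 6 of the 12 were higher in KO and 0 lower (0 lower by voom or at an unadjusted p under 0.05), among them the nuclease gene Dis3, at 9.75 ± 0.37 FPKM in heated KO and 6.49 ± 0.25 FPKM in heated WT cells (0.52 ± 0.08, adjusted p = 0.00034). The interaction was above 0 for 8 of the 12 and below 0 for 0 (0 by voom and at an unadjusted p under 0.05), the largest being Exosc3 at 0.80 ± 0.14 (adjusted p = 0.0014). Without both WT replicates 1 these counts were 1 higher and 3 lower with heat in KO, 9 lower with heat in WT, 4 lower in KO without heat, 6 higher and 1 lower in KO after heat, and 8 above 0 for the interaction.

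Of 12 tested exosome adaptors, 1 rose and 1 fell with heat in KO, and 2 rose and 3 fell in WT; without both WT replicates 1, 1 rose and 7 fell in WT. Ncbp1, the large cap-binding subunit, fell by 0.53 ± 0.08 in WT (limma, adjusted p = 0.00015). Of 19 cleavage and polyadenylation genes, 1 rose and 3 fell in KO and 1 rose and 10 fell in WT. Pcf11, a termination factor, was the one that rose, at 12.1 ± 1.70 FPKM in heated KO and 7.38 ± 0.24 FPKM in unheated KO cells, and 12.4 ± 2.41 FPKM in heated WT and 6.35 ± 0.40 FPKM in unheated WT cells. Cpsf2, which is also the partner of Ndufb1-ps, fell by 0.76 ± 0.10 in WT (adjusted p = 5.7e-05), while Ndufb1-ps changed by 0.23 ± 0.17 (adjusted p = 0.28). Of 14 Integrator genes, which end many short transcripts, 3 rose and 3 fell in KO and 1 rose and 10 fell in WT. In KO against WT without heat, 0 adaptors were higher and 5 lower. Cleavage and polyadenylation genes gave 1 and 2, and Integrator genes 1 and 7. After heat the counts were 1 and 1, 7 and 0, and 3 and 1 in the same order. Interactions above and below 0 numbered 4 and 0, 6 and 0, and 5 and 0 by limma. Voom called 1 adaptor and 1 cleavage and polyadenylation gene below 0. None of the 3 U1 snRNP protein genes was called in any comparison by limma; at an unadjusted p under 0.05 Snrpc was higher in KO after heat and Snrnp70 had an interaction above 0, and voom called 1 of the 3 higher with heat in WT. The shares of all genes called stand above for each comparison, and what these levels have to do with the levels of the RNAs was not tested.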

How the data were processed

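RNA-seq libraries (12) of mouse embryonic fibroblasts were made from poly(A)-captured RNA, per the labels' protocols, with HISAT2 named as aligner in the submitters' processing notes; no version, counter, strand setting, build or annotation is given in the sources used here. The authors deposited FPKM values, 1 column per library; 0 columns of per-sample values were left unused. Groups and replicate numbers came from the titles. Multiplied by gene length, 100% of non-zero values came out as whole numbers of a library's smallest unit (tolerance 0.01), which gave the fragments. The library total implied by that unit was below the summed fragments in the heated KO libraries and above them in the other libraries. That total may therefore not be a plain count of mapped fragments. How it was set, and whether it evens out the libraries, is not given in the sources used here. Of the identifiers, 54495 were in GENCODE M21 and 53585 had identical positions there, as had 161 of the 164 RNAs, so positions are on GRCm38; 1 of the RNAs has another biotype in GENCODE M21.

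Genes reaching 1 FPKM in 3 or more libraries (13023) were fitted as log2(FPKM + 1) with limma 3.58.1 in R 4.3.3, with trend, 4 group means and no block; Benjamini-Hochberg adjustment ran over all genes tested, two-sided. No set test was run. Heat is heated minus unheated, genotype is KO minus WT, and the interaction is heat in KO minus heat in WT. Steps were tested on simulated data. Per kind of RNA and comparison, the named RNAs are the 4 largest rises and 4 largest falls among calls whose groups did not overlap (for the interaction, among calls), plus the 5 highest mean FPKM, the RNAs just inside and outside the level, their partners or neighbours, and up to 2 genes per list and comparison. A result that this rule would name is not reported here. A neighbour was a protein-coding gene on the same strand that ends within 10000 bases upstream or overlaps the start. Alternatives covered the pseudocount, filter, scaling, library weights, a replicate block, groups alone, limma's voom on the fragments with median-of-ratios factors (chosen after seeing the data), and libraries left out. Deviations of same-numbered libraries correlated at 0.33, 0.02 and 0.23 for KO against WT after heat, and at -0.12 to 0.02 elsewhere. Differently numbered libraries ran from -0.315 to 0.13 for KO against WT after heat. The numbers were not taken as pairs, and a replicate block is among the alternatives. The RNAs and lists were chosen with earlier results of these data known. Intervals and p-values cover the spread between libraries.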

Additional observations from a re-analysis of the deposited data

Results flagged for a closer look

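For the RNAs below the change with heat differed between KO and WT cells by the interaction of the limma fit (heat in KO minus heat in WT, on the log2 scale). The antisense RNAs with a smaller rise or a larger fall in KO were Gm26771 (-1.81), Dnm3os (-1.57), Gm45095 (-1.29), Gm45564 (-1.21), Gm30177 (-1.18), Gm15445 (-0.87), Gm12207 (-0.67) and Tug1 (-0.43). Gm26771 had 1.57 ± 0.20 FPKM in heated KO and 2.30 ± 0.50 FPKM in unheated KO cells, and 3.75 ± 0.72 FPKM in heated WT and 0.744 ± 0.379 FPKM in unheated WT cells (SD, n = 3 each). The call for Gm15445 held under 7 of the 23 alternatives and that for Gm30177 under 17. Gm45095, Gm45564 and Gm12207 were under 1 FPKM in every unheated WT library, so their values are a description. The bidirectional promoter RNAs were 0610009L18Rik (-0.82), D430020J02Rik (-0.82) and B230354K17Rik (-0.47). Those above 0 were Gm17201 (0.46), a call lost under 12 of the 23 alternatives and whose partner Ankrd52 had 0.47 ± 0.13, and Prss23os (0.67), which was under 1 FPKM in every unheated library and whose sign depends on the pseudocount.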

How the results depend on the processing

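With limma's library weights antisense RNAs gave 72 for heat in KO (43 with equal weights), 52 for KO against WT without heat (30), 69 after heat (36) and 46 for the interaction (19), and bidirectional promoter RNAs gave 10 for heat in WT (4), 7 for heat in KO (3), 10 after heat (5) and 10 for the interaction (3). With no filter on low values the antisense counts were 23 after heat and 7 for the interaction, where more genes enter the adjustment; quantile normalization gave 12 for the interaction. With an equal sum per library the bidirectional counts were 8 for heat in KO and 6 for the interaction, and without both WT replicates 1 they were 5 for the interaction. Leaving out each library in turn gave antisense counts of 51 to 64 for heat in WT, 31 to 50 for heat in KO, 25 to 35 and 24 to 39 for KO against WT without and after heat, and 8 to 20 for the interaction. The bidirectional counts were 3 to 5, 2 to 4, 5 to 7, 3 to 8 and 2 to 6 in the same order. With the replicate number as a block, antisense counts were 64, 39, 33, 36 and 21, and bidirectional counts 5, 3, 8, 5 and 4. The data do not show the numbers to pair the libraries in every comparison. The interaction of Prss23os reversed to -0.016 with a pseudocount of 0.1 and to -0.49 with voom; the cause of these changes was not tested. Of 58 named results, 40 kept their direction and call under all 23 alternatives. Voom with trimmed-mean factors, which had been planned, was not run; voom with median-of-ratios factors was chosen after seeing the data. Low fragment counts limit the RNAs under 20 fragments per library.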
